A study of Saccharomyces cerevisiae with 4 samples.

Results

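The yapsins of Saccharomyces cerevisiae are a family of aspartyl proteases, and their genes YPS1 (YLR120C), YPS3 (YLR121C), YPS5 (YGL259W), YPS6 (YIR039C), YPS7 (YDR349C) and MKC7 (YDR144C) were examined here for their response to acetic acid. All 6 genes, identified by their systematic names, were present among the 5799 genes of the table. The family was chosen by the acid-to-untreated ratios of YPS3, which rose strongly, so the acid-to-untreated ratios of the 6 genes are given as a description, which no test supports. Acid-treated and untreated cultures of strain BY4741 were compared on 4 two-colour arrays. BY4741, a MATa haploid used widely in yeast laboratories, is LYS2 and carries the deletion alleles his3Δ1, leu2Δ0, met15Δ0 and ura3Δ0, in treated and untreated cultures alike. The labels write the last allele as ura3Δ0 for 1 array and as ura3Δ1, ura3Δ2 and ura3Δ3 for the others. Cells grew in YPD rich medium at 28 °C to an absorbance of 0.6. A 50 ml culture then received 30 mM acetic acid for 2 h, while the untreated culture received none.

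Yapsins are made as precursors in the secretory pathway and are held at the plasma membrane or in the cell wall by a glycosylphosphatidylinositol (GPI) anchor. They cleave other cell surface proteins next to basic residues, and cells that lack the family are known to be sensitive to cell wall stress. Yps1 and Mkc7 are the best-studied members and can take over part of the pro-alpha-factor processing that is normally done by the Golgi protease Kex2. The cell wall integrity pathway, which ends in the kinase Slt2 and the transcription factor Rlm1, is known to control many cell wall genes.

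The acid-treated RNA was labelled with Cy5 on 2 arrays and with Cy3 on 2 arrays, and each array is named below by that dye and by its replicate number. Every value is a log2 ratio of acid-treated over untreated RNA on 1 array, so that 0 means no difference. The direction is likely rather than stated. Every pair of arrays had a Pearson's r above 0 over the genes (0.41 to 0.80, a description, since genes do not replicate each other), as they do when dye-swapped arrays have already been turned the same way. With this reading, 5 of 5 tested genes from a list of 8 genes known to be driven by the weak-acid factor Haa1 lay above 0, between 2.54 and 5.28. With the opposite reading every sign below would turn. The lowest 2 correlations were those of the array with acid in Cy3 replicate 1 with the arrays with acid in Cy5. A ratio gives no level of expression, so the strain's mating type and deletions could not be checked, and levels of different yapsin genes could not be set against each other.

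YPS3 had the highest ratio of the family on every array. With replicate 1 given before replicate 2, its log2 ratio was 3.57 and 4.16 with acid in Cy5, and 3.56 and 3.86 with acid in Cy3. All arrays were thus far above 0, and both dye orientations gave values in the same range. The mean was 3.79 ± 0.28 (SD, n = 4), or 13.8-fold, which placed YPS3 at rank 24 of the 5291 genes with values on at least 3 arrays (rank 5268 with the direction turned). On the single arrays it ranked 32 and 22 with acid in Cy5 and 20 and 27 with acid in Cy3. In cultures measured in bulk, more cells that express a gene and more RNA per cell cannot be told apart.

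YPS1 encodes a protease at the cell surface that helps maintain the wall. It was the only other member above 0 on every array that measured it. Its log2 ratio was 0.58 and 1.49 with acid in Cy5, and 0.87 and 0.81 with acid in Cy3. The value of acid in Cy5 replicate 2 was the highest of the 4, and the other 3 lay close together. The mean was 0.94 ± 0.39 (SD, n = 4), or 1.91-fold, at rank 327 of the tested genes.

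YPS1 and YPS3 are next to each other on chromosome XII in the reference gene table of assembly R64, with no annotated gene between them. On every array the ratio of YPS3 was well above that of YPS1. The difference in log2 ratio, YPS3 minus YPS1, was 2.99 and 2.67 with acid in Cy5 and 2.69 and 3.05 with acid in Cy3. These differences spread less (mean 2.85 ± 0.20, SD, n = 4) than either gene's own ratios, and correspond to a 7.22-fold larger ratio for YPS3. Probe sequences were not used here, so cross-hybridisation between yapsin genes was not tested.

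MKC7, whose product overlaps in function with Yps1, had a mean ratio slightly below 0. Its log2 ratio was -0.37 and 0.02 with acid in Cy5, and -0.07 and -0.72 with acid in Cy3. The lowest values were those of acid in Cy3 replicate 2 and acid in Cy5 replicate 1, and the mean was -0.28 ± 0.34 (SD, n = 4). YPS7 had -0.25 and 0.22 with acid in Cy5, and -0.58 and -0.65 with acid in Cy3. Its arrays with acid in Cy3 lay below both arrays with acid in Cy5, and the mean was -0.31 ± 0.39 (SD, n = 4). Within an array, YPS3 exceeded MKC7 by 3.63 to 4.57 and YPS7 by 3.83 to 4.50 on the log2 scale.

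YPS5 and YPS6 each had values on 3 arrays. YPS5 is the shortest member, with 498 bp in the reference gene table against 1527 to 1791 bp for the other 5. Its log2 ratio was -0.11 and -0.32 with acid in Cy5 and -0.17 with acid in Cy3 replicate 2, the only member below 0 on every array that measured it. The mean was -0.20 ± 0.11 (SD, n = 3), and 4.69% of the tested genes had a smaller standard deviation.

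YPS6 had opposite signs in the 2 dye orientations. Its log2 ratio was 0.93 and 1.07 with acid in Cy5, against -1.18 with acid in Cy3 replicate 1, and there was no value for acid in Cy3 replicate 2. Both arrays with acid in Cy5 were thus within the range of YPS1, while the single array of the other orientation was the lowest value of the whole family. The mean over the 3 arrays was 0.27 ± 1.26 (SD, n = 3), a mean that counts one orientation with 2 arrays and the other with 1. With equal weight for both orientations, in a fit with a term for the dye, it was -0.09. The standard deviation of YPS6 was larger than that of 97.7% of the tested genes. The single value with acid in Cy3 comes from the array whose ratios spread most over all genes (SD 1.05, against 0.70 to 0.81 on the others), and the part of that array in the split was not tested.

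**Figure D1:**
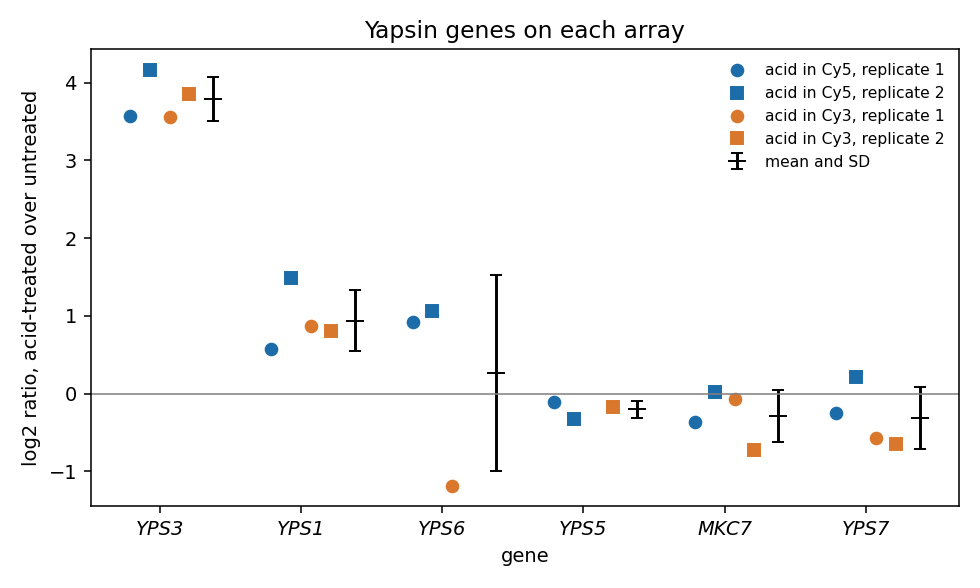
Log2 ratio (acid-treated over untreated) of the 6 yapsin genes on each array, with acid in Cy5 in blue and acid in Cy3 in orange, circles for replicate 1 and squares for replicate 2, and the mean with its SD in black. YPS3 lies between 3.56 and 4.16 on 4 arrays, YPS1 lies above 0 on 4 arrays, and the points of YPS6 fall on both sides of 0 by dye.

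A limma fit of all 5291 tested genes, at a Benjamini-Hochberg adjusted p of 0.05, called 10.9% of genes changed after acid, 8.85% higher and 2.02% lower. All 6 yapsin genes had enough values to be tested. YPS3 and YPS1 were among the genes called higher, none was called lower, and 4 were not called. Because YPS3's response led to the choice of the family, nothing is read from the count of 2 in 6 or from the calls of single members. YPS1 lost its call when either array with acid in Cy5 was left out (mean 1.06 without replicate 1 and 0.75 without replicate 2). It also lost it without the second array with acid in Cy3 (mean 0.98). Those fits called 4.44%, 3.92% and 3.22% of all their genes, in that order. YPS6 was called higher without acid in Cy3 replicate 1, in a fit that called 17.2% of all its genes. Its mean of 1.00 there rests on the arrays with acid in Cy5 alone.

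The median of the 6 mean log2 ratios was 0.03, against -0.04 over all tested genes. The members lay at different places in the ranking of the tested genes. YPS3 exceeded 99.5% of the tested genes, YPS1 93.8% and YPS6 73.6%, while YPS5, MKC7 and YPS7 exceeded 35.0%, 28.0% and 25.9%. With the direction turned, YPS3 would exceed 0.435% of the tested genes and YPS1 6.16%. Values above 0 on every array measured were found for 2 of the 6 genes and for 22.5% of the tested genes. Values below 0 on every array were found for 1 of the 6 and for 20.1% of the tested genes.

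**Figure D2:**
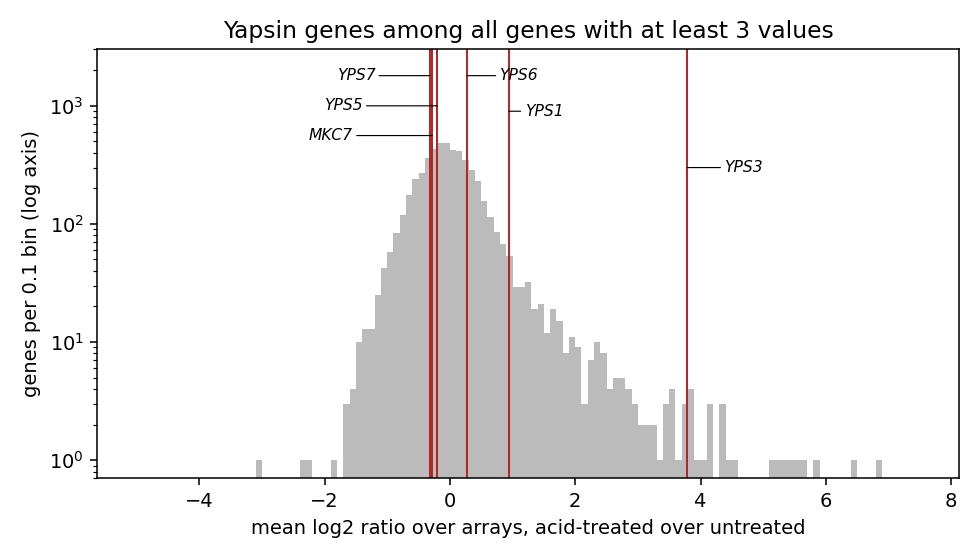
Number of tested genes (log axis) by mean log2 ratio of acid-treated over untreated RNA, in bins of 0.1, with the 6 yapsin genes as red lines. YPS3 at 3.79 stands in the sparse upper tail, YPS1 at 0.94 on the upper shoulder, and the other 4 members between -0.31 and 0.27 in the bulk.

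The difference between the dye orientations is a contrast that the choice of the family did not use, and it was tested for each member in limma with a term for the orientation. None of the 6 genes passed an adjusted p of 0.05, a threshold passed by 0.227% of all tested genes. For YPS3 the arrays with acid in Cy5 minus those with acid in Cy3 gave 0.16 (95% interval -0.68 to 1.00, adjusted p = 0.915 in limma). After scaling of the arrays this difference was 1.28, outside that interval, and after quantile normalization it was -0.12. The closeness of YPS3's orientations thus depended on how the arrays were scaled. For YPS1 the difference was 0.20 (-0.73 to 1.12, limma adjusted p = 0.901). The intervals are wide, since each orientation had 2 arrays, and a difference of up to about the size of YPS1's own ratio lies within them.

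YPS6 had the largest dye difference of the family. Its log2 ratio averaged 1.00 with acid in Cy5 (n = 2) and -1.18 with acid in Cy3 (n = 1), a difference of 2.18. With 1 array in an orientation, the fit assumes that this array varies like the others, so the dye cannot be told apart from that array. The difference reached an unadjusted p of 0.00169, as the only member under 0.05 against 7.03% of all tested genes, but did not pass over all genes (limma adjusted p = 0.316). Without acid in Cy3 replicate 2, which holds no value of YPS6, the same difference had a limma adjusted p of 8.2e-05, in a fit of 3 arrays that called 17.8% of all its genes. Opposite signs in the 2 orientations, on every array measured, were found for 9.32% of the tested genes. For YPS7 the difference was 0.59 (-0.20 to 1.39, limma adjusted p = 0.673), for MKC7 0.22 (-0.65 to 1.09, limma adjusted p = 0.880) and for YPS5, with 1 array with acid in Cy3, -0.04 (limma adjusted p = 0.982).

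**Figure D3:**
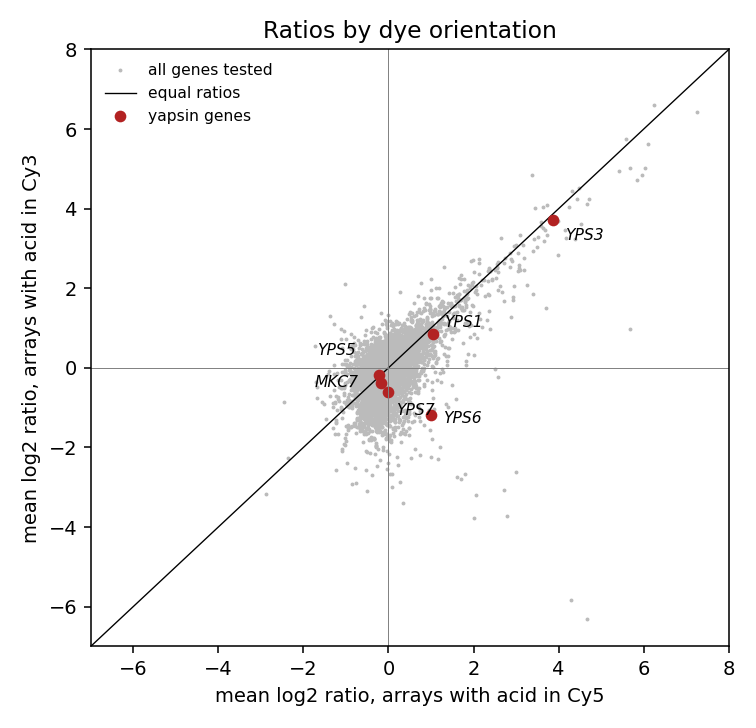
Mean log2 ratio of each tested gene on the arrays with acid in Cy5 (horizontal axis) and on those with acid in Cy3 (vertical axis), with the yapsin genes in red and a line of equal ratios. YPS3 and YPS1 lie close to the line, and YPS6 lies below it at 1.00 and -1.18.

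Genes next to the yapsin genes on their chromosomes were read from the reference gene table. Of 10 such neighbours that are no yapsin genes, 7 had values on at least 3 arrays, with mean log2 ratios between -0.65 and 0.59. On the far side of YPS3, YLR122C had -0.29 and -0.38 with acid in Cy5 and -1.63 and -0.29 with acid in Cy3. On the far side of YPS1, SRN2, which encodes a subunit of the ESCRT-I sorting complex, had 0.33 and -0.41 with acid in Cy5 and -1.91 and -0.12 with acid in Cy3. Neither was called, and the means of the genes that flank the YPS1-YPS3 pair, -0.65 and -0.53, were below 0. The only neighbour that passed was GTT1, a glutathione transferase gene beside YPS6, 14.3% of the 7 against 10.9% of all tested genes. It had 0.55 and 0.68 with acid in Cy5 and 0.71 and 0.41 with acid in Cy3 (mean 0.59 ± 0.14, SD, n = 4, limma adjusted p = 0.0455) and, unlike YPS6, lay above 0 in both orientations. PAU15, on the other side of YPS6, had a mean of 0.18 (n = 3). PAL1 beside YPS7 had a mean of 0.22, and SAN1 and TAF12, on either side of MKC7, had -0.18 and 0.29.

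The genes whose ratios lay nearest to those of YPS3 were taken by the root mean square difference over the 4 arrays, among 4895 other genes with 4 values. YJR096W was nearest, at a root mean square difference of 0.28 on the log2 scale. Its log2 ratio averaged 3.57 ± 0.28 (SD over 4 arrays, also for the next genes). It was followed by YBL070C at 0.30 (mean log2 ratio 3.84 ± 0.37) and by ZPR1, a zinc finger protein gene, at 0.34 (3.83 ± 0.53). APJ1, which encodes a J-domain cochaperone, followed at 0.36 (3.53 ± 0.39), and FES1, a nucleotide exchange factor gene for cytosolic Hsp70, at 0.37 (3.62 ± 0.16). With 4 arrays this likeness mostly ranks genes by a similar size of ratio.

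The wider setting of the yapsins was described with gene lists, whose genes were tested in the same fit over all genes. The lists were written with earlier results of these data known, so their shares of called genes are a description. Among genes associated with Rlm1 and the cell wall, a list that leaves out the yapsins, 9 of 23 rose, 1 fell and 13 did not pass. That is 43.5% called, against 10.9% of all tested genes, with a median log2 ratio of 0.44 against -0.04. Over the list 20 means lay above 0 and 3 below. The means of the 13 that did not pass ran from -0.56 (KDX1, n = 3) and -0.50 (FKS1) to 1.17 (TOH1). With a dye term the mean of KDX1, which had 1 array with acid in Cy3, was -0.85. PST1, a GPI-anchored cell wall protein gene, had 3.17 and 3.34 with acid in Cy5 and 2.00 and 2.16 with acid in Cy3. It had the highest mean of the list, 2.67 ± 0.68 (SD, n = 4, limma adjusted p = 0.00217), still below the ratio of YPS3. NCW2, another GPI-anchored wall protein gene, had 1.77 and 1.89 with acid in Cy5 and 1.52 and 2.04 with acid in Cy3 (limma adjusted p = 0.00108). PIR3 and HSP150, genes of the PIR family of wall proteins, had means of 1.76 ± 0.35 and 1.62 ± 0.37 (SD, n = 4 each, limma adjusted p = 0.00212 and 0.00320). The mean of YPS1, 0.94, was close to those of SED1 (0.91) and CIS3 (0.83), wall protein genes of the same list. SED1 and CIS3 were named after their values were seen, from a list whose means ran from -0.86 to 2.67. Nothing is read from this likeness. The gene that fell was CHS3, a chitin synthase gene, with a mean of -0.86. Without acid in Cy3 replicate 2, 5 genes of the list were called higher, in a fit that called 3.22% of all its genes in either direction. CHS3 was not called without that array or without either array with acid in Cy5. CHS3 also lost its call with same-numbered arrays averaged and with a minimum of 2 values per gene.

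In the cell wall integrity pathway itself, 2 of 14 tested genes rose, none fell and 12 did not pass. The share called, 14.3%, was near the 10.9% of all tested genes. One was MTL1, a cell surface sensor gene, with 1.31 and 2.22 with acid in Cy5 and 1.51 and 2.36 with acid in Cy3 (mean 1.85 ± 0.52, SD, n = 4, limma adjusted p = 0.00412). The other was SLT2, the kinase gene, which is also in the Rlm1 list, with 0.87 and 0.67 with acid in Cy5 and 2.09 and 2.20 with acid in Cy3 (mean 1.46 ± 0.80, limma adjusted p = 0.0323). SLT2 was lower on both arrays with acid in Cy5 than on both with acid in Cy3, and was called only in fits that kept all of the arrays or left out acid in Cy3 replicate 1. RLM1 had -0.49 with acid in Cy3 replicate 1 and 0.84, 1.29 and 2.16 on the other 3 arrays. The gene did not pass on 4 arrays (limma adjusted p = 0.172). It was called without acid in Cy3 replicate 1, with a mean of 1.43, in a fit that called 17.2% of all its genes. In that same fit WSC3 was called lower, with a mean of -0.55. PKC1 was called lower with a replicate block (-0.54) and after quantile normalization (-0.63). Those fits called 13.9% and 15.3% of all their genes.

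Of 18 tested genes of other proteases and the GPI machinery, 0 passed in limma, against 10.9% of all tested genes, and 2 had an unadjusted p under 0.05. The 4 other aspartyl protease genes had mean log2 ratios between -0.25 and 0.25. PEP4, the vacuolar protease A gene, had a mean of -0.14 ± 0.46 (SD, n = 4, limma adjusted p = 0.666) and DDI1, a gene of a retroviral-type aspartyl protease, 0.25 ± 0.11 (SD, n = 4, limma adjusted p = 0.248). BAR1, the secreted alpha-factor protease gene of a cells, is named for its values: it had 0.88 and 0.58 with acid in Cy5 and -1.603 and -0.866 with acid in Cy3, the same split by dye as YPS6 (dye difference 1.96, limma adjusted p = 0.231). Of the 3 Golgi processing proteases, KEX2 had a mean of -0.35 ± 0.34 (SD, n = 4, limma adjusted p = 0.224) and STE13 0.16 ± 0.45 (SD, n = 4, limma adjusted p = 0.624).

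The 11 genes of GPI transamidase and anchor remodelling, the machinery that attaches and trims the anchor of the yapsins, had 9 means below 0 and 2 above. Their median was -0.24, and the median over all tested genes was below 0 as well, at -0.04. BST1, the inositol deacylase gene, had the lowest, -0.46 with acid in Cy5 replicate 1 and -1.763 and -1.297 with acid in Cy3 (mean -1.17 ± 0.66, SD, n = 3, limma adjusted p = 0.0627). It passed with a dye term, with a replicate block, after scaling and after quantile normalization (limma adjusted p between 0.0275 and 0.0465). GPI8, the catalytic subunit gene of the transamidase, had a mean of -0.41 ± 0.32 (SD, n = 4, limma adjusted p = 0.167). Reported targets of yapsin cleavage had ratios nearer to 0 than YPS3 or YPS1. MSB2, a mucin-like sensor gene whose product is shed by Yps1, had a mean of -0.52 ± 0.41, and GAS1, a glucan-remodelling enzyme gene, 0.26 ± 0.52 (SD, n = 4 each, limma adjusted p = 0.133 and 0.460).

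**Figure D4:**
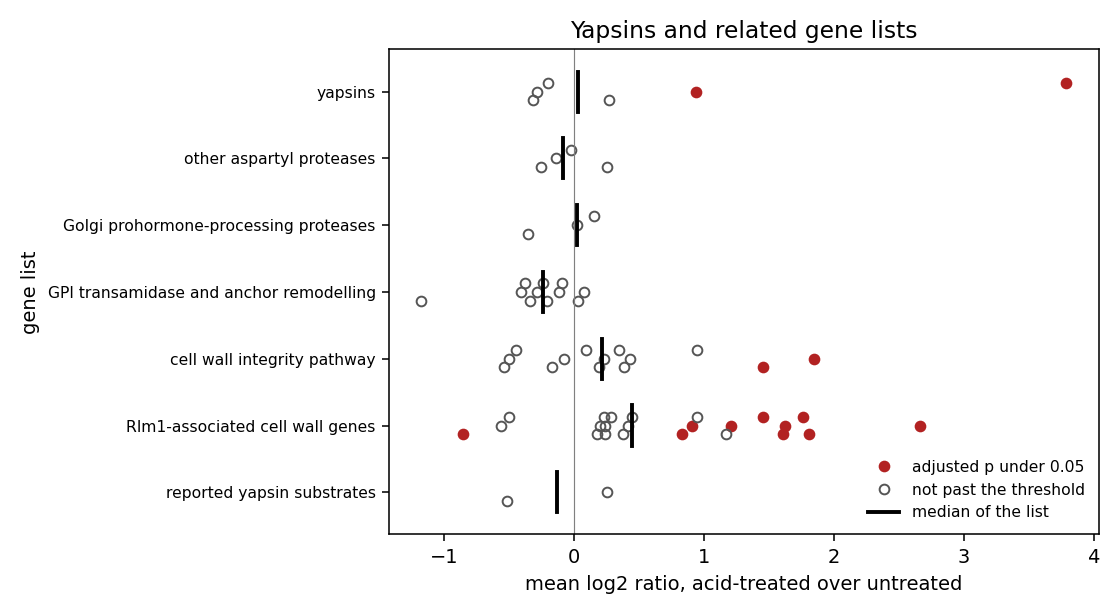
Mean log2 ratio of acid-treated over untreated RNA for each tested gene of the yapsins and of 6 related lists, filled where the limma adjusted p was under 0.05, with the median of each list as a black bar. YPS3 at 3.79 lies above every gene of the other lists, of which PST1 at 2.67 is the highest.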

How the data were processed

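Per the labels' protocols, RNA came from an acid-phenol extraction and its labelling was indirect. Each gene has 1 deposited value for an array, read here as the log2 ratio of both channels. The values are signed and have array medians between -0.028 and 0.01. Base 2 is an assumption, and another base would change all folds. For scanner, background correction, normalization and filters the sources used here give nothing, signal over background is unknown, and the number of arrays limits the precision. The series' design speaks of biological replicates, some of them dye swaps. If same-numbered arrays are dye swaps of the same RNA, n is 2.

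The 5291 genes with values on at least 3 of 4 arrays were tested in limma 3.58.1 (R 4.3.3; lmFit and eBayes, two-sided, Benjamini-Hochberg, threshold 0.05) with an intercept for acid and, separately, a dye term. The 508 others were not tested. The fits were tested on simulated data. The 95% intervals are unadjusted. Deviations from the orientation means correlated with r = 0.252 between arrays of the same number. With 2 such pairs, no pairing was assumed.

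Members and lists were chosen with earlier results of these data known. Named genes were the members, up to 4 called genes per list (or the 2 with the smallest p), neighbours, and the 5 genes nearest to YPS3. BAR1, RLM1, SED1, CIS3, CHS3, KDX1, FKS1, TOH1, PKC1 and WSC3 were added after their values were seen. Symbols, gene order and lengths came from the R64 gene table, which held 5316 of 5799 names. Alternatives were a dye term, replicate blocks, averaging, centring, scaling, quantile normalization, other minimums of values, robust variance and leaving out each array.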

Additional observations from a re-analysis of the deposited data

Results flagged for a closer look

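Genes named in the text, 37 without KDX1, FKS1, TOH1, PKC1 and WSC3, were examined for a single array far from the others and for opposite signs in the 2 dye orientations. By chance about 1 group in 20 has such an array. Opposite signs were found for 3 of the 37 genes, and for 9.32% of all tested genes. YPS6 lay above 0 on both arrays with acid in Cy5 and below 0 on the array with acid in Cy3, a difference of 2.18 (limma adjusted p = 0.316). TAF12, the neighbour of MKC7 and a gene of a general transcription factor subunit, was opposite in sign too, with a difference of -1.23, acid in Cy5 minus acid in Cy3 (limma adjusted p = 0.600). BAR1, the alpha-factor protease gene, lay above 0 with acid in Cy5 and below 0 with acid in Cy3 on 4 arrays, a difference of 1.96 (limma adjusted p = 0.231). It was named after its values were seen. YLR122C, next to YPS3, had an array apart from the other 3, acid in Cy3 replicate 1 with -1.63. DDI1 had such an array in acid in Cy5 replicate 1, with 0.42 against 0.19 to 0.21 on the others.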

How the results depend on the processing

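Leaving out 1 array gave mean log2 ratios of 3.66 to 3.86 for YPS3, 0.75 to 1.06 for YPS1 and -0.13 to 1.00 for YPS6. The number of yapsin genes called, 2 with all arrays, was 1 to 3 without 1 array. Over all genes, 575 were called after acid (468 higher, 107 lower), against 383 with same-numbered arrays averaged, 809 after quantile normalization (541 higher, 268 lower) and 179 to 936 without 1 array. With the replicate number as a replicate block, at an estimated correlation of -0.109 within blocks, 733 genes were called. The dye contrast called 12 of 5291 genes. With the replicate number as a further term it could test only the 4896 genes with 4 values. Of those 7 passed, against 8 without that term. Leaving out 1 array gave 9 to 904 genes in the dye contrast, the highest without acid in Cy3 replicate 2; the cause was not tested. BST1 was called lower with a dye term (-0.996), with a replicate block (-1.17), after scaling (-1.05) and after quantile normalization (-1.10). A minimum of 2 arrays was not run for the dye contrast. Signal intensities were not analysed here, so the share of these differences set by dim spots is unknown.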
